A study of Mus musculus with 14 samples.

Results

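The genes described here are 6 trypsin-like serine proteases of epithelial cells and 2 Kunitz-type inhibitors of such proteases. They were taken from the FPKM table (read abundance scaled for transcript length and library size) by gene symbol, as St14, Prss8, Prss22, Tmprss2, Tmprss4 and Hpn for the proteases and Spint1 and Spint2 for the inhibitors. All 8 were found, among 46517 genes. The table covers 14 lung tumours of 2 mouse models of small cell lung cancer, a neuroendocrine lung cancer. Both models carry Rbfl/fl and p53fl/fl alleles, meant for deletion by an adenovirus with Cre under the Cgrp promoter, so the models share both alleles and the cell type in which that promoter acts. The 11 RPM tumours also carried a Cre-activated Myc (T58A) allele, as LSL/LSL in 9 tumours and LSL/+ in 2 (replicates 2 and 4). The 3 RPR2 tumours carried P130 fl/fl, which removes Rbl2, in place of the Myc allele. The tumours were untreated and were cut out of the lung as pieces of tissue, so other lung cells can be among the cells measured, and ages are not given.

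Most of these proteases sit in or on the cell membrane and cut other membrane proteins, growth factors and channels at arginine or lysine. Matriptase (St14), hepsin (Hpn), Tmprss2 and Tmprss4 are type II transmembrane proteases, prostasin (Prss8) is held by a lipid anchor, and Prss22 is a tryptase of airway epithelium. Hepatocyte growth factor activator inhibitor type 1 (Spint1) and type 2 (Spint2) are membrane proteins that block matriptase, prostasin and hepsin, and epithelia usually make protease and inhibitor together, with the inhibitor also needed for matriptase to mature and reach the cell surface.

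By the steps that single reads leave among low FPKM values, the libraries held an estimated 17.5 to 20.2 M mapped reads in RPM and 21.5 to 22.9 M in RPR2, and 12994 to 14974 genes reached an FPKM of 1. Myc was 48.4 to 384 FPKM in RPM against 4.68, 6.83 and 13.6 in RPR2, while Rbl2, as a gene-level value that does not resolve deleted exons, overlapped between the models (3.43 to 9.90 against 3.58, 7.55 and 3.34). At the same gene level Rb1 was 5.19 to 22.6 FPKM in RPM against 39.4, 49.8 and 3.58 in RPR2, and Trp53 7.93 to 78.0 against 10.3, 12.5 and 5.69. RPR2 replicate 3 stood apart: its 10 neuroendocrine markers summed to 18.2 FPKM against 226 to 1354 in RPM and 2881 and 4269 in the other RPR2 tumours, and its 10 alveolar type 2 markers summed to 54058 against 1976 and 2599 in RPR2 replicates 1 and 2. Calca, a defining neuroendocrine marker, was 7.47 FPKM in that library, within the RPM range of 4.18 to 22.8, against 505 and 1654 in RPR2 replicates 1 and 2. Calls that change without replicate 3 are given beside the results. The labels do not say that the tumours came from separate animals, and 2 title numbers are each shared by 2 RPM tumours, so p-values measure only the spread between these samples. The library identifiers in the labels begin with another number in RPR2 than in RPM, and what that number stands for cannot be told apart from the model.

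All 8 genes were lower in RPM than in RPR2 by limma on log2(FPKM + 1), with Benjamini-Hochberg adjustment over the 15719 genes tested, at adjusted p-values from 4.47e-08 for Tmprss4 to 0.0214 for Prss22. Of all genes tested, 22.8% were called lower and 18.4% higher. The difference was at least 2 log2 units for 7 of the 8, which held for 5.63% of the genes tested. Without RPR2 replicate 3, 7 of 7 members tested were called lower, against 27.4% of 15406 genes. For 7 of the 8, every RPM tumour lay below every RPR2 tumour, which held for 13.6% of the genes tested; Prss22 was the exception. Prss22 and Hpn passed the low-value filter only through RPR2, since each reached an FPKM of 1 in just 1 RPM tumour. In bulk tissue, fewer cells that make a transcript and less transcript per cell cannot be told apart. Differences between the models are given below as differences of mean log2(FPKM + 1), RPM minus RPR2, and understate the change of genes that were low.

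**Figure D1:**
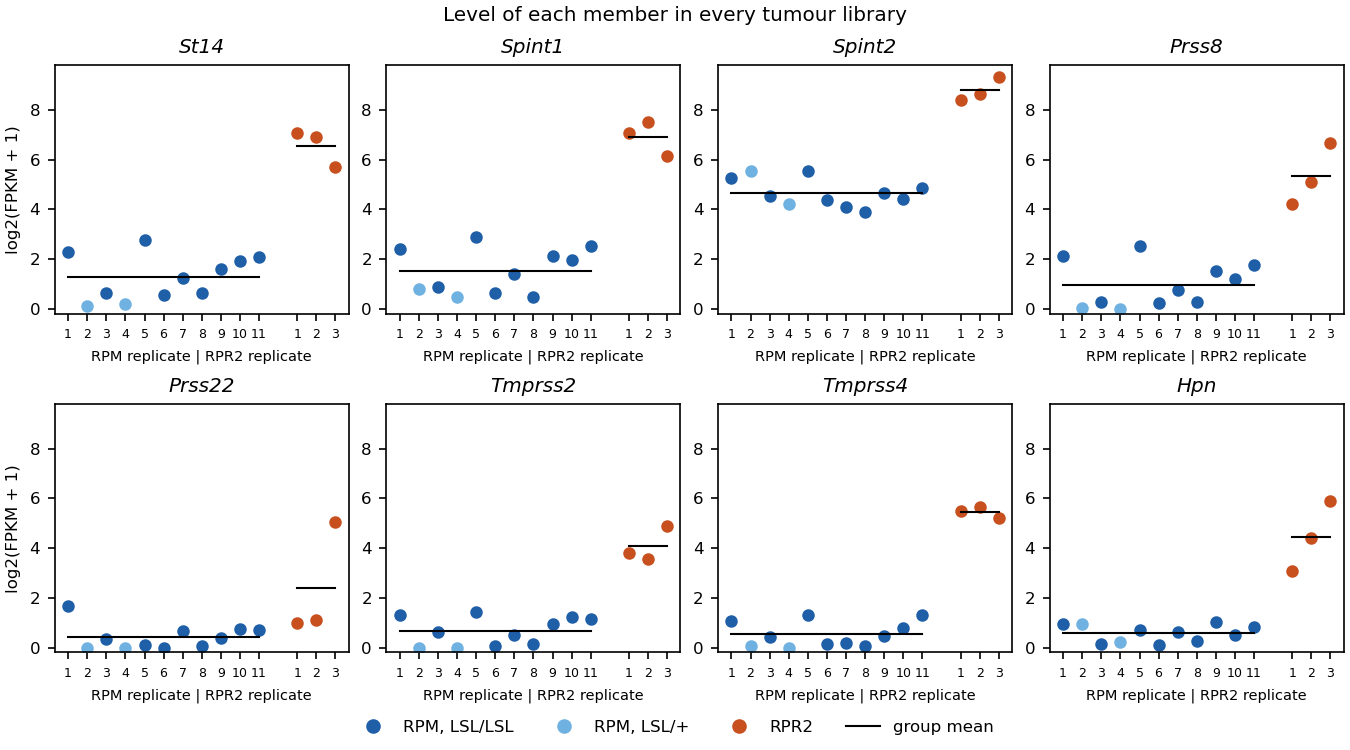
Level of each of the 8 genes as log2(FPKM + 1) on the y axis in the 11 RPM tumours (replicates 1 to 11, LSL/LSL and LSL/+ in separate blues) and the 3 RPR2 tumours (orange), with a line at each group mean. RPR2 lies above RPM without overlap for every gene but Prss22, where of RPR2 only replicate 3 (32.4 FPKM) exceeds RPM replicate 1 (2.21 FPKM).

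Matriptase, encoded by St14 (ENSMUSG00000031995; GRCm38 chr9:31089402-31131853, minus strand), activates prostasin, protease-activated receptor 2 and pro-hepatocyte growth factor at epithelial surfaces. St14 had a lowest, median and highest RPM value of 0.07, 1.38 and 5.82 FPKM, against 133, 118.5 and 51.1 in RPR2 replicates 1 to 3. The lowest RPR2 tumour was 8.78 times the highest RPM tumour, so the groups were far apart. The limma difference was -5.28 (SE 0.53, adjusted p = 3.31e-06), or 38.9-fold lower on the FPKM + 1 scale, and 0.108% of genes tested had a larger fall. The 2 lowest RPM values, 0.07 and 0.13, belong to the LSL/+ tumours. Of these, 0.07 lies just above the 0.0375 to 0.0492 FPKM that 3 reads on this transcript are worth.

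Prostasin, encoded by Prss8 (ENSMUSG00000030800; chr7:127925716-127930104, minus strand), acts with matriptase in a common cascade and activates the epithelial sodium channel. Prss8 was 0, 0.69 and 4.71 FPKM at its lowest, median and highest in RPM and 17.3, 33.2 and 102.01 in RPR2. All RPR2 values were above all RPM values, but the RPR2 tumours differed among themselves by several fold, with replicate 3 highest. The limma difference was -4.36 (SE 0.58, adjusted p = 3.93e-05), a 20.5-fold lower level, and -3.68 (adjusted p = 0.00031) without RPR2 replicate 3. Exons of Prss8 overlap those of Kat8 on the other strand, with 4.05% of its 50-base runs also found in Kat8; Kat8 was 15.2 to 23.0 FPKM over the RPM tumours and 15.2, 14.4 and 9.50 in RPR2, a range that does not follow that of Prss8.

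Hepsin, encoded by Hpn (ENSMUSG00000001249; chr7:31098725-31115290, minus strand), can activate pro-hepatocyte growth factor and is best known from liver and prostate. Hpn was 0.06, 0.56 and 1.05 FPKM at its lowest, median and highest in RPM, and 7.44, 20.1 and 58.6 in RPR2. The order within RPR2 was that of Prss8, lowest in replicate 1 and highest in replicate 3, and the groups did not overlap. By limma the difference was -3.88 (SE 0.40, adjusted p = 4.27e-06), and -3.16 without replicate 3.

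Tmprss2 (ENSMUSG00000000385; chr16:97564682-97611195, minus strand) is an airway and prostate protease known for cutting viral surface proteins. It was at 0 in 2 RPM tumours, had a median of 0.54 and reached 1.70 FPKM, against 12.9, 10.9 and 29.0 in RPR2. Tmprss4 (ENSMUSG00000032091; chr9:45172726-45204092, minus strand), a related protease of epithelia and carcinomas, ran from 0 through a median of 0.35 to 1.51 FPKM in RPM, against 44.2, 49.5 and 35.6 in RPR2. Both genes were separated between the models, and Tmprss4 had the narrowest spread over the RPR2 tumours and the lowest p of the 8 genes. The limma differences were -3.42 for Tmprss2 (SE 0.37, adjusted p = 5.75e-06) and -4.92 for Tmprss4 (SE 0.31, adjusted p = 4.47e-08), the latter 30.3-fold lower. An antisense transcript, Gm17099, shares 14.2% of the 50-base runs of Tmprss4 and was listed at 0 in every tumour.

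Prss22 (ENSMUSG00000045027; chr17:23993534-23998100, minus strand) can activate prourokinase and, unlike the other 7, overlapped between the models. It was at 0 in 3 RPM tumours, had a median of 0.28 and a highest value of 2.21 FPKM, and was 0.99, 1.14 and 32.4 in RPR2. RPM replicate 1 was thus above RPR2 replicates 1 and 2, and the RPR2 mean was set by replicate 3. The limma difference of -1.96 (SE 0.63, adjusted p = 0.0214) did not hold without that library: Prss22 then fell below the filter, and with no filter the difference was -0.62 (limma adjusted p = 0.227). Array weights, which let limma weigh each library, gave -0.65 (adjusted p = 0.0260). The two-sided exact permutation test over the 364 ways to assign the labels gave p = 0.0330 for Prss22 with all libraries and 0.154 without replicate 3 (0.0513 without replicate 1 or 2), while the other 7 genes each gave 0.00549, the smallest p that design allows.

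Spint1 (ENSMUSG00000027315; chr2:119237362-119249527, plus strand) encodes the cognate inhibitor of matriptase. Spint1 was 0.37, 1.61 and 6.48 FPKM at its lowest, median and highest in RPM, and 135, 184 and 69.5 in RPR2. As with St14, RPM replicate 5 was the highest RPM tumour and RPR2 replicate 3 the lowest RPR2 tumour, with no overlap. At -5.42 (SE 0.53, limma adjusted p = 2.43e-06), or 42.8-fold lower, it had the largest difference of the 8 genes, and it was -5.81 without RPR2 replicate 3.

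Spint2 (ENSMUSG00000074227; chr7:29256323-29281912, minus strand) encodes the inhibitor with the broader tissue range. It was the only one of the 8 genes above an FPKM of 1 in all 11 RPM tumours, at 14.02, 22.2 and 46.1 FPKM at its lowest, median and highest, and it was 339, 393 and 638 in RPR2. Spint2 had the highest FPKM of the 8 genes in each of the 14 tumours, and its groups did not overlap. The limma difference was -4.11 (SE 0.34, adjusted p = 5.23e-07) or 17.3-fold lower.

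**Figure D2:**
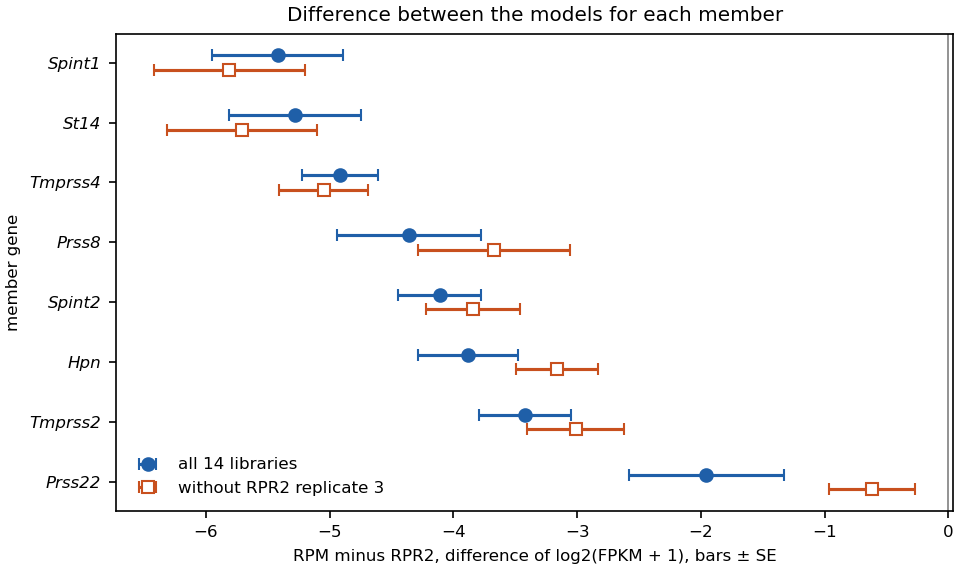
Difference of mean log2(FPKM + 1), RPM minus RPR2, for each gene, with bars of ± SE from limma, for all 14 libraries (filled circles) and without RPR2 replicate 3 (open squares; for Prss22 with no low-value filter). Spint1 (-5.42) and St14 (-5.28) lie furthest below 0, and Prss22 moves from -1.96 to -0.62 without that library.

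The 3 RPR2 tumours split the genes by order. Replicate 3 was the lowest of the 3 for St14, Spint1 and Tmprss4, and the highest for Spint2, Prss8, Prss22, Tmprss2 and Hpn. The same library had the alveolar type 2 sum of 54058 FPKM, with Sftpc alone at 30744, and the lowest neuroendocrine sum. All 10 alveolar type 2 markers were lower in RPM by limma, 5 of them also without replicate 3, with sums of 148 to 1494 in RPM, and 5 of the 10 (Sftpa1, Sftpd, Lamp3, Slc34a2 and Cxcl15) were at 0 in some library. Of 7 club and secretory markers 4 were lower, with sums of 1.28 to 1655 FPKM in RPM against 3577, 25975 and 3207 in RPR2, and of 7 alveolar type 1 markers 3 were lower (1 without replicate 3), with sums of 22.2 to 233 against 188, 259 and 723.

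Each RPR2 tumour can be set against the highest RPM tumour for a gene or marker sum, which was not the same tumour throughout. The alveolar type 2 sum of RPR2 replicate 1 was 1.32 times the highest RPM sum, the alveolar type 1 sum 0.804 times and the club sum 2.16 times. In the same library Tmprss4 was 29.2 times its highest RPM value, St14 22.9 times, Spint1 20.8 times, Tmprss2 7.61 times, Spint2 7.36 times, Hpn 7.09 times and Prss8 3.68 times. Prss22, at 0.448 times, was below its highest RPM value there. In replicate 2 the club sum was 15.7 times the highest RPM sum and the alveolar type 2 sum 1.74 times. There Tmprss4 (32.8 times), Spint1 (28.4), St14 (20.4) and Hpn (19.2) exceeded the club factor, while Spint2 (8.54), Prss8 (7.06), Tmprss2 (6.4) and Prss22 (0.516) did not. In replicate 3 the alveolar type 2 sum was 36.2 times the highest RPM sum, and Hpn alone exceeded that, at 55.8 times. Tmprss4 was there 23.6 times its highest RPM value, Prss8 21.7, Tmprss2 17.1, Prss22 14.7, Spint2 13.9, Spint1 10.7 and St14 8.78. Endothelial, neuroendocrine, club, fibroblast, ciliated and mast cell marker sums were lowest of RPR2 in replicate 3, as St14, Spint1 and Tmprss4 were. Over their highest RPM sums, the endothelial and neuroendocrine sums were 4.50 and 2.13 times in replicate 1 and 5.71 and 3.15 times in replicate 2. In replicate 3 they were 0.757 and 0.0134 times. Vwf alone made up 238 of the endothelial sum of 298 FPKM in replicate 1 and 329 of 378 in replicate 2. The mast cell sum was nearly all Kit, at 25.95 of 26.04, 16.51 of 16.61 and 1.32 of 1.36 FPKM in RPR2 replicates 1 to 3. The other 5 mast cell markers were each at 0 in some library. The fibroblast, ciliated and mast cell sums exceeded their highest RPM sum in no RPR2 tumour. Of 6 endothelial markers 2 were lower in RPM by limma, with or without replicate 3. Of 10 neuroendocrine markers 1 was lower and 2 higher, which became 5 lower and 1 higher without replicate 3, with the median turning from 0.63 to -1.51. Of 7 ciliated markers 0 were called, and 1 was lower without replicate 3. The part of these cell types in the differences was not tested.

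Because FPKM is per length, protease and inhibitor can also be compared within a tumour. Spint1 over St14 had a median close to even in RPM: the quotient of FPKM ran from 0.709 to 10.1 in RPM with a median of 1.17 and its highest value in replicate 2, where St14 was near its floor, against 1.01, 1.55 and 1.36 in RPR2. Spint1 exceeded St14 in 10 of 11 RPM and 3 of 3 RPR2 tumours. On the log2((FPKM + 1)/(FPKM + 1)) scale, St14 over Spint1 averaged -0.22 ± 0.24 (SD, n = 11) in RPM and -0.36 ± 0.31 (SD, n = 3) in RPR2, a difference of 0.14 (two-sided exact permutation p = 0.440, adjusted p = 0.615 over 7 ratios). The models overlapped in this ratio, and the sign of the difference turned with the pseudocount (-0.11 at a pseudocount of 0.1).

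Spint2 exceeded St14 in every tumour. The quotient of Spint2 over St14 ran from 7.27 to 655 in RPM with a median of 12.0, and was 2.55, 3.32 and 12.5 in RPR2. RPR2 replicate 3 therefore lay inside the RPM range and the other RPR2 tumours below it. The log ratio of Spint1 to Spint2 differed by -1.31 between the models (two-sided exact permutation p = 0.0385, adjusted p = 0.115), that of St14 to Spint2 by -1.17 (exact p = 0.0604, adjusted p = 0.115), and none of the 7 ratios passed the adjusted threshold of 0.05.

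Without RPR2 replicate 3, 4 of the 7 ratios passed at a pseudocount of 1. St14 over Spint2 was then -1.87, Spint1 over Spint2 -1.97, Prss8 over Spint1 2.13 and Hpn over Spint1 2.65 (exact permutation p = 0.0256 for each, the smallest that 11 against 2 allows, adjusted p = 0.0449). In those 2 RPR2 tumours, Prss8 and Hpn were low next to Spint1, at log ratios of -2.89 and -2.44 for Prss8 and -4.01 and -3.13 for Hpn, whereas RPM lay between -0.77 and -0.22 for Prss8 over Spint1 and between -2.19 and 0.17 for Hpn over Spint1. The pseudocount pulls RPM ratios of genes under an FPKM of 1 toward 0: with all libraries, the difference fell from 1.06 to 0.42 and -0.10 for Prss8 over Spint1, and from 1.54 to 0.85 and 0.59 for Hpn over Spint1, at pseudocounts of 1, 0.1 and 0.01. Replicate 3, at 0.55 and -0.24, was above or within the RPM range for both. Other pseudocounts were not run without replicate 3. In plain FPKM, neither ratio separated RPM from RPR2 replicate 2, where Prss8 was 33.2, Hpn 20.1 and Spint1 184. RPM replicate 4 had a lower Prss8 ratio, with Prss8 at 0 and Spint1 at 0.37. RPM replicate 5 had a lower Hpn ratio, with Hpn at 0.64 and Spint1 at 6.48.

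**Figure D3:**
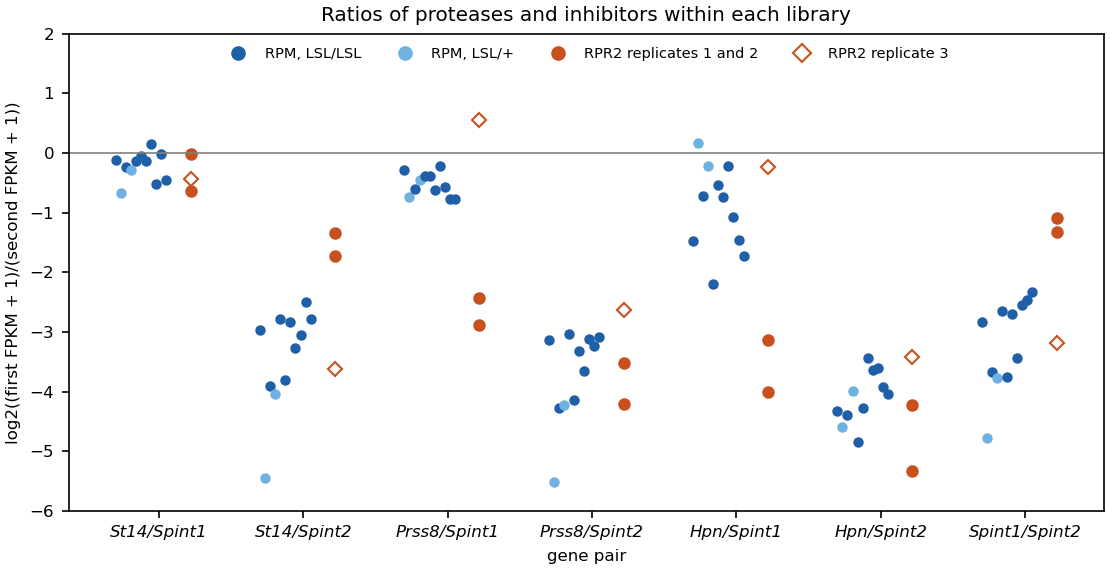
Log2 of the ratio of FPKM + 1 on the y axis for each of the 7 pairs, 1 point a tumour, with RPM LSL/LSL and LSL/+ in separate blues, RPR2 replicates 1 and 2 as filled orange circles and RPR2 replicate 3 as an open diamond. RPR2 replicate 3 lies far from the other RPR2 tumours for Prss8/Spint1, Hpn/Spint1, St14/Spint2 and Spint1/Spint2, and the models overlap for St14/Spint1.

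Among the 11 RPM tumours, St14, Prss8 and Spint1 varied together. Replicate 5 was the highest tumour for each of them, replicates 1, 5, 9, 10 and 11 held the 5 highest St14 values, and the LSL/+ tumours (replicates 2 and 4) were lowest for St14 and Prss8. Over log2(FPKM + 1), Pearson's r was 0.965 for St14 with Spint1 (permutation p = 3e-05), 0.978 for Prss8 with Spint1 (permutation p = 3e-05) and 0.976 for St14 with Prss8 (permutation p = 1e-05, the smallest 100000 permutations can give), each 8e-05 after adjustment over 8 pairs. Spearman's rho was 0.907 (permutation p = 0.00031), 0.955 (2e-05) and 0.980 (1e-05) for the same pairs. Leaving out the 2 tumours farthest from the median gave r of 0.970, 0.980 and 0.966. St14 left a gap between 0.55 and 1.38 FPKM, and within the 6 tumours above it r was 0.927, 0.960 and 0.926.

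Spint2 did not share this pattern as closely. Its highest RPM values, 46.1 and 45.9 FPKM, were in replicate 5 and in replicate 2, and the latter had the lowest St14. With Spint2, r was 0.416 for St14 (permutation p = 0.201, adjusted p = 0.201), 0.534 for Prss8 (permutation p = 0.0930, adjusted p = 0.106) and 0.555 for Spint1 (permutation p = 0.0816, adjusted p = 0.106). Spearman's rho was 0.433 (permutation p = 0.185), 0.536 (0.0960) and 0.691 (0.0226, adjusted p = 0.0451). Without the 2 farthest tumours these r were 0.719, 0.101 and 0.356, so the values rest on single tumours; within the 6 tumours above the St14 gap they were 0.936, 0.997 and 0.943.

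Hpn was tied less closely to the inhibitors than St14 and Prss8 were to Spint1. Hpn gave r = 0.670 with Spint1 (permutation p = 0.0272, adjusted p = 0.0545; rho = 0.591, permutation p = 0.0592) and r = 0.643 with Spint2 (permutation p = 0.0365, adjusted p = 0.0584; rho = 0.627, permutation p = 0.0435). Without the 2 farthest tumours r was 0.580 and 0.695, and within the 6 tumours above the St14 gap it was 0.300 and 0.349, the lowest of the 8 pairs. Its highest RPM values were in replicate 9 and, at 0.93, in the LSL/+ replicate 2. Marker sums of more than 1 lung cell type moved with the shared pattern. The alveolar type 2 sum was 876 to 1494 FPKM in the 5 tumours of highest St14 and 148 to 412 in the other 6. In the same tumours the alveolar type 1 sum was 120 to 233 against 22.2 to 63.9. The endothelial sum was 50.05 to 66.2 against 18.2 to 34.7. The part of these cell types in the relations was not tested.

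**Figure D4:**
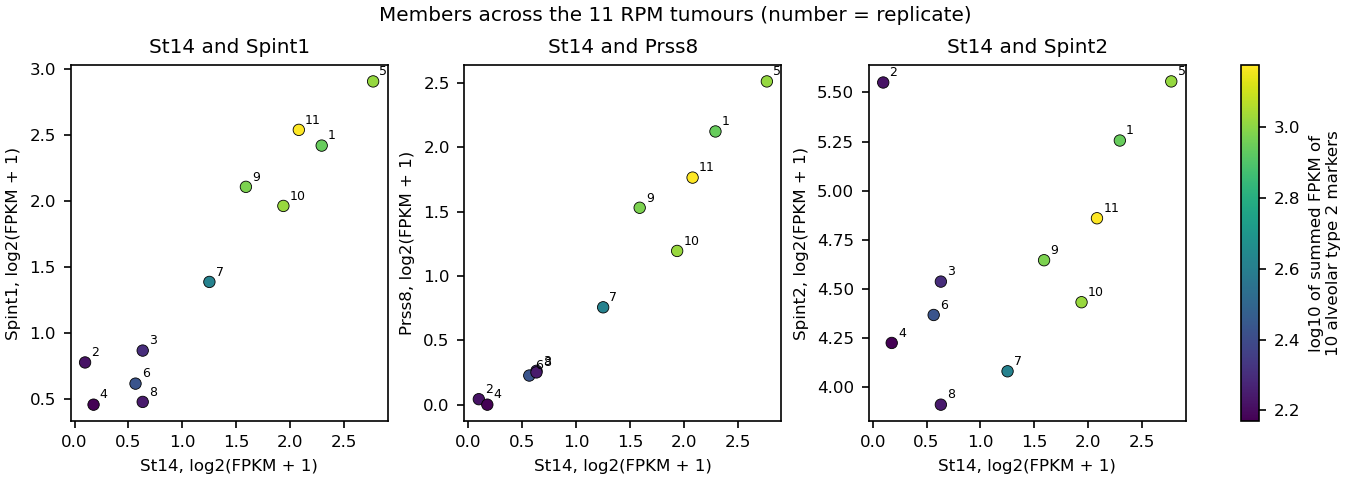
Log2(FPKM + 1) of St14 (x axis) against Spint1, Prss8 and Spint2 (y axes) in the 11 RPM tumours, numbered by replicate and coloured by the log10 of the summed FPKM of the 10 alveolar type 2 markers. The points for Spint1 and Prss8 lie along a line (r = 0.965 and 0.976), whereas Spint2 is high in the LSL/+ replicate 2, where St14 is 0.07 FPKM.

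The genes whose levels followed each gene most closely over the 11 RPM tumours were, for St14, the epithelial cadherin Cdh1 (r = 0.990), the cytochrome P450 gene Cyp2s1 (0.982) and the adhesion gene Ceacam1 (0.979). For Spint1 they were the sodium channel gene Scn7a (0.979), Prss8 (0.978) and the polarity gene Crb3 (0.977), and for Prss8 the adhesion gene Nectin4 (0.985), Mlc1 (0.980) and Spint1. For Tmprss2 they were the co-receptor gene Tgfbr3 (0.982), Cyp4b1 (0.979) and the simple keratin Krt8 (0.977), and for Tmprss4 the adhesion gene Epcam (0.974), Rab25 (0.972) and the splicing regulator Esrp2 (0.969). For Spint2 they were Lars2 (0.903), Vamp5 (0.902) and Plac9b (0.901). These values are a description over 11 tumours of 1 model, which differed in their alveolar and club marker sums. Cdh1 was 0.07 to 15.6 FPKM over the RPM tumours and 205, 332 and 152 in RPR2, so it was separated between the models as St14 was. Cyp2s1, Ceacam1, Scn7a, Cyp4b1, Lars2, Vamp5 and Plac9b overlapped between the models, and the other genes named here did not. Cyp2s1 reached 3.58 FPKM in RPM and was 2.44 in RPR2 replicate 1.

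Between RPM tumours with LSL/LSL (n = 9) and LSL/+ (n = 2), no member passed limma's adjusted threshold. Of 15485 genes tested, 0.0258% were called lower in LSL/LSL and 0.0% higher, and at an unadjusted p under 0.05 a share of 16.8% differed in either direction, 11.8% higher. St14 was 0.48 to 5.82 FPKM in LSL/LSL and 0.07 and 0.13 in LSL/+, a difference of 1.39 (SE 0.54, unadjusted p = 0.0236, limma adjusted p = 0.271). Tmprss2 was at 0 in both LSL/+ tumours and 0.05 to 1.70 in LSL/LSL, a difference of 0.82 (SE 0.36, unadjusted p = 0.0431, limma adjusted p = 0.289). The differences of Prss8, Spint1 and Tmprss4 were 1.16, 1.08 and 0.61 (limma adjusted p = 0.314, 0.348 and 0.371), and that of Spint2 was -0.26 (adjusted p = 0.735), which turned to 0.40 without RPM replicate 2. Prss22 and Hpn were below the filter within RPM. The alveolar type 2 sums of both LSL/+ tumours were among the lower 6 of the 11.

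RefSeq promoter windows (GRCm38.p6, 250 bases before to 50 after a start site) were found for 4 of the 8 genes, Spint1, Spint2, Tmprss2 and Hpn, the last with 2 windows; St14, Prss8, Prss22 and Tmprss4 have none here. They are shown because these genes were low together in RPM, and they are read 5′ to 3′ on the gene's strand. Each was searched on both strands for AACCNGGTT (bound by Grainyhead-like factors), CACCTG or its reverse complement CAGGTG (the E-box of ZEB and SNAI repressors) and CACGTG (the E-box of MYC and MAX), which do not overlap each other here; capitals mark the CACCTG or CAGGTG matches.
Spint1, chr2:119237110-119237409, plus strand: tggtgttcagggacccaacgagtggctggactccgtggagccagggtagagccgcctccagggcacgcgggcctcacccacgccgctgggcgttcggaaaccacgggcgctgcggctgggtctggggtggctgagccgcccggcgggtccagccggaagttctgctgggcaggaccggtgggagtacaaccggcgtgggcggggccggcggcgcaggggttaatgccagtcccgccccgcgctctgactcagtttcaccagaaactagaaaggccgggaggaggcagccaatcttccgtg
Spint2, chr7:29281928-29282227, minus strand: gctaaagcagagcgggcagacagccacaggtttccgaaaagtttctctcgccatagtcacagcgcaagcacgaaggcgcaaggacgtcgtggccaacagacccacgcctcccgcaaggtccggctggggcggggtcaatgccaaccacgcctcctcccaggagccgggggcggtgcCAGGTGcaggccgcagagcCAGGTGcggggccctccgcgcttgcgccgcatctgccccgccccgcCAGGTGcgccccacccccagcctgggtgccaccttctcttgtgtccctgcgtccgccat
Tmprss2, chr16:97611146-97611445, minus strand: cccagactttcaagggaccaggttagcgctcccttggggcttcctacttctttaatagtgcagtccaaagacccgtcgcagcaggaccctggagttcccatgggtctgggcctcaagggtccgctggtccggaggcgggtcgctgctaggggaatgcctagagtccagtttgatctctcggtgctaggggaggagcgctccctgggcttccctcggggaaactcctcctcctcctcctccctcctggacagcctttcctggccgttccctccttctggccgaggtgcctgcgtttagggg
Hpn, chr7:31115277-31115576, minus strand: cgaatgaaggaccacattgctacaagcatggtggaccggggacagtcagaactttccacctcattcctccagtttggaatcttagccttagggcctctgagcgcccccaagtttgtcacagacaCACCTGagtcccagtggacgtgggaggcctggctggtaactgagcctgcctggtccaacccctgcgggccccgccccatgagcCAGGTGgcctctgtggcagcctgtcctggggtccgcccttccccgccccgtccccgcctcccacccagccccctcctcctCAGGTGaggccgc
Spint2 held 3 CAGGTG matches, at positions -74, -55 and -9 from the start site, and the Hpn window held 3 matches, at -126, -43 and 38. The Spint1 and Tmprss2 windows and the other Hpn window (chr7:31110948-31111247) held none. Of all 32851 windows of this length, 20.2% held at least 1 such match and 0.365% held 3 or more. None of the 5 windows held AACCNGGTT, found in 0.271% of all windows, or CACGTG, found in 7.15%. The G and C content was 69.7% for Spint1, 69.3% for Spint2, 62.3% for Tmprss2 and 64.7% and 50.3% for Hpn, against a median of 52.7% over all windows. A match describes the letters only.

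A list of regulators of epithelial expression and of 5 epithelial junction and keratin genes had 19 of 25 tested genes lower in RPM and 1 higher by limma, against 22.8% lower and 18.4% higher over all genes tested, with a median difference of -2.61 against -0.06. The junction and keratin genes (Cdh1, Cldn3, Cldn4, Krt8 and Krt18) were lower in 5 of 5, at -6.12 to -4.38, and the regulators in 14 of 20, with a median of -2.42. Ovol1, Ovol2 and Elf5 were among the genes that passed the filter only through RPR2, which fixed their direction. The lower regulators included the ETS factor Ehf (-4.90, adjusted p = 3.45e-07), Ovol2 (-2.61, adjusted p = 8.06e-07), the splicing regulator Esrp1 (-4.99, adjusted p = 1.58e-06) and Grhl1 (-2.34, adjusted p = 1.71e-06), all by limma. Grhl1 was 0.52 to 2.33 FPKM over the RPM tumours and 9.87, 9.85 and 9.01 in RPR2, and was thus even over the RPR2 tumours. The higher gene was Zeb1, which encodes a repressor of epithelial genes, between 6.65 and 32.2 FPKM in the RPM tumours against 6.41, 6.36 and 1.2 in RPR2 (1.87, SE 0.43, limma adjusted p = 0.00305). Without RPR2 replicate 3, 10 of 16 regulators tested were lower and 1 higher, against 27.4% and 16.4% of all genes.

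Among substrates and signalling partners of these proteases, 10 of 15 tested were lower and 2 higher, against 22.8% and 18.4% of all genes, with a median difference of -2.48. Cdcp1, a membrane protein cut by matriptase, was at most 2.46 FPKM in RPM, with RPR2 values of 29.98, 29.9 and 13.1 (-3.85, limma adjusted p = 1.42e-06). Epcam and Cldn7, adhesion partners of which matriptase can cut the former, differed by -5.92 (limma adjusted p = 1.11e-05) and -6.07 (5.59e-06), and the growth factor gene Tgfa by -2.87 (2.64e-06). The 2 higher genes, named after their values were seen, were the transferrin receptor Tfrc (1.89, limma adjusted p = 0.00229) and the matricellular gene Ccn2 (1.43, 0.00976). Without RPR2 replicate 3, 9 of 14 tested were lower, against 27.4% of all genes, and 2 higher.

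The hepatocyte growth factor pair was also named after its values were seen, because matriptase and hepsin act on it. Met, the receptor, lay between 0.56 and 6.91 FPKM in RPM tumours and was 15.9, 14.5 and 27.5 in RPR2 (-2.57, SE 0.41, limma adjusted p = 0.000197). Hgf, the ligand, was 0.05 to 0.76 in RPM and 24.4, 28.1 and 0.21 in RPR2, so only 2 libraries were high, and it was below the filter and not tested.

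Among the other serine protease inhibitors, 8 of 22 tested were lower and 1 higher, against 22.8% and 18.4% of all genes. Their median difference was -0.85 against -0.06 over all genes. Serpinb6a (-1.91, limma adjusted p = 1.2e-05), the Kunitz-domain genes App (-1.56, 0.000338) and Aplp2 (-1.55, 0.00328) and the intracellular inhibitor Serpinb8 (-2.48, 0.000963) were lower. Spock2, named after its value was seen, was higher (2.38, limma adjusted p = 0.00386). Without RPR2 replicate 3, 10 of 22 were lower and 1 higher, against 27.4% and 16.4% of all genes. Aplp2 is also the nearest gene to St14 on one side.

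Few other proteases of the class could be tested. Only Corin of 14 other type II transmembrane proteases passed the filter. Its FPKM ran from 0.05 through a median of 0.28 to 1.03 in RPM, against 0.18, 2.45 and 3.02 in RPR2 (-0.88, limma adjusted p = 0.0352). Corin could pass only because RPR2 replicates 2 and 3 exceeded an FPKM of 1, so the filter itself favoured a lower call. In RPR2 replicate 1 Corin was below the RPM median. Corin was not testable without RPR2 replicate 3. Of 39 other trypsin-like proteases 11 were tested, 4 were lower and 0 were higher, against 22.8% and 18.4% of all genes, with a median of -0.46: Klk13 (-3.21, limma adjusted p = 9.45e-05), Klk1 (-4.92, 0.000343), coagulation factor gene F7 (-1.62, 0.000562) and Prss35 (-1.41, 0.0232). Klk13 and Klk1 reached an FPKM of 1 in no RPM tumour and passed the filter only through RPR2, which fixed their direction. Klk1 was at most 0.44 FPKM in RPM and was 66.3, 262 and 1.32 in RPR2, so RPR2 replicate 3 was the lowest of the 3, whereas it was the highest for Klk13 (2.05, 8.83 and 37.1). Without replicate 3, 2 of 9 tested were lower, next to 27.4% of all genes, and Prss35 was not called (-0.42, limma adjusted p = 0.195).

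**Figure D5:**
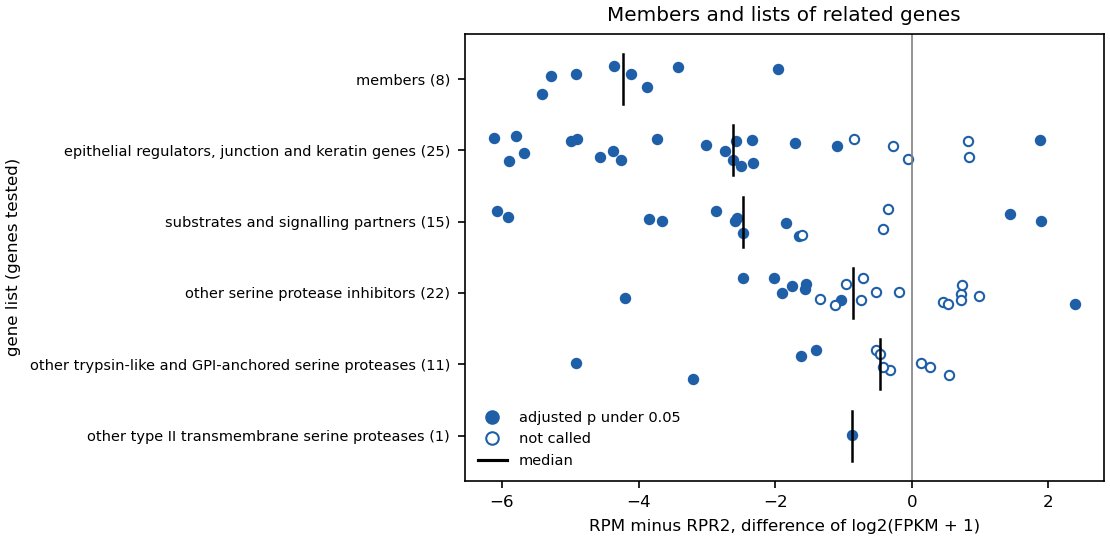
Difference of log2(FPKM + 1), RPM minus RPR2, for each tested gene of the 8 members and the 5 lists of related genes, 1 point a gene, filled where the limma adjusted p was under 0.05, with a line at each median. The medians of the regulators with the junction and keratin genes (-2.61) and of the substrates (-2.48) lie further below 0 than that of the other trypsin-like proteases (-0.46).

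The genes next to each member along the chromosome did not all share its difference. Of the 16 nearest genes on either side, 11 were tested, 6 were lower and 0 higher by limma, against 22.8% and 18.4% of all genes. Ppp1r14d, beside Spint1, was at most 0.22 FPKM in RPM. It passed the filter only through RPR2, which fixed its direction. The lower gene beside Spint2, 2200002D01Rik, reached 5.36 FPKM in RPM and was 4.78, 3.56 and 96.5 in RPR2. Calls without RPR2 replicate 3 are not given for these neighbours. Prss36, a protease gene 2534 bases from Prss8, was 4.89 to 8.75 FPKM over the RPM tumours and 6.14, 9.63 and 8.80 in RPR2 and was not called (-0.31, limma adjusted p = 0.227). Ripk4, beside Tmprss2, was lower, next to -3.42 for Tmprss2 (-3.48, limma adjusted p = 2.94e-07).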

How the data were processed

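RNA-seq of 11 RPM and 3 RPR2 tumours was used as the deposited table of FPKM, which the authors made per gene and library. RSEM 1.2.12 and Bowtie 1.0.1 with mm10 are named by the submitters' processing notes; the annotation release and strand setting are not given in the sources used, and no read counts were used, so depth was only estimated. SDs and SEs cover the spread between tumours, and the floor of 3 reads covers counting error only. Libraries were stranded and selected for poly(A), per the labels' protocols. RSEM divides reads that match several genes, which can move values of genes that share sequence. Symbols were matched to 46005 of 46517 identifiers, and 1 reporter row at 0 was left out. Columns were matched to samples by title.

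The test used log2(FPKM + 1) of every gene that reached FPKM 1 in 3 or more libraries (2 or more within RPM), with limma 3.58.1 in R 4.3.3, a trended empirical Bayes step, and p-values adjusted by Benjamini-Hochberg over all of them at a threshold of 0.05. Exact permutation tests, two-sided, served for ratios and single levels, and relations by 100000 permutations; the functions were tested on simulated data. Alternatives changed the pseudocount, scaling, filter, test, library weights, tumours with a shared title number, and each replicate in turn. The 8 genes, the lists and the tests were chosen with earlier results of these data known. Genes named from a list are up to 4 called ones of smallest p; for likeness, the 3 of highest r were taken, skipping unnamed, predicted and Rik genes and pseudogenes. Sequences are RefSeq's, and coordinates are GENCODE M21 on GRCm38, the assembly of mm10. No protein sequence was used here.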

Additional observations from a re-analysis of the deposited data

Results flagged for a closer look

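Prss22 in RPM replicate 1 was 2.21 FPKM, far from the other 8 LSL/LSL tumours, of which the next highest was 0.70 FPKM. On the log2(FPKM + 1) scale the gap was 0.545 of the whole range, above Dixon's 95% critical value for 9 samples. Each of the 8 genes was examined at both ends, and chance alone flags about 1 group in 20.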

How the results depend on the processing

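Replicates carry no numbers of their own in the labels. No paired analysis was possible because the groups share no replicate number or animal. St14, Spint1, Spint2, Prss8, Tmprss2, Tmprss4 and Hpn were lower in RPM at an adjusted p under 0.05 (limma or Wilcoxon) under every setting in which they were tested; 6 of 6 members tested were called with a mean FPKM of 5 as the filter, 7 of 8 by the Wilcoxon test (Prss22 adjusted p = 0.0615), and 7 to 8 with single libraries left out. Genes higher in RPM numbered 1878 instead of 2897 with TPM scaling, and genes lower 2171 at the mean of 5, 6577 with array weights and 6655 without RPR2 replicate 3 and with no filter, an alternative chosen after seeing the data, instead of 3586. Leaving out single libraries gave 2276 to 3033 genes higher and 2360 to 4227 lower. TPM scaling moved the median difference of all genes from -0.06 to -0.23 and quantile normalization to 0.08; the latter called 3657 genes higher and 3066 lower. Between LSL/LSL and LSL/+ the 4 genes called became 11 with a pseudocount of 0.01, 1 with TPM scaling, 30 with no filter, 1 at the mean of 5, 0 with array weights (1684 at an unadjusted p under 0.05 in limma) and 0 to 9 with single tumours left out; Spint2 turned from -0.26 to 0.40 without RPM replicate 2. Ratios that changed sign were St14/Spint1 (-0.11 and -0.24 at pseudocounts of 0.1 and 0.01), Prss8/Spint1 (-0.10 at 0.01), Hpn/Spint2 (-1.16 and -1.53 at the same pseudocounts) and Prss8/Spint2 (0.013 with LSL/LSL tumours only). With single libraries left out, differences ran from 0.0036 to 0.31 for St14/Spint1, -1.87 to -0.73 for St14/Spint2, 0.42 to 2.13 for Prss8/Spint1, -0.62 to 0.17 for Prss8/Spint2, 0.76 to 2.65 for Hpn/Spint1, -0.28 to 0.68 for Hpn/Spint2 and -1.97 to -0.92 for Spint1/Spint2. Pearson relations that passed only under an alternative were Hpn with Spint1 (r = 0.710 at a pseudocount of 0.1, 0.740 with TPM scaling), Hpn with Spint2 (0.639), Prss8 with Spint2 (0.683) and Spint1 with Spint2 (0.685), the last 3 with TPM scaling. With 1 tumour per title number (n = 9), St14 with Spint1 gave r = 0.965 (permutation adjusted p = 0.0016). The cause of these changes was not tested.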
